A study of Mus musculus with 12 samples.

Results

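The genes described here are 5 genes of the cardiac type of desmosome, Dsg2, Dsc2, Dsp, Pkp2 and Jup, taken from a table of 41214 mouse genes measured by RNA-seq in endothelial cells of the embryonic heart. They were selected by name, with results of these libraries known, as desmosome genes of endocardium, so differences between endocardial and coronary libraries are given for them as a description and without a test. Changes between the stages were tested, but they rest on the same libraries as those differences, so their p-values are not free of the choice of genes. Each symbol matched 1 Ensembl identifier, and all 5 passed the filter on low counts, as did 15171 genes in all.

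The 12 libraries fall into 4 groups: E17 endocardial (n = 2), E17 coronary (n = 2), E13 endocardial (n = 4) and E13 coronary (n = 4). Cells were sorted from ventricles as viable, Ter119-, CD45- and CD31+. All embryos carried a Nes-gfp transgene (Tg/0), which labels cells with a green reporter driven by Nestin sequences. At E13.5 the endocardial gate was GFP-low and Emcn-high, and the coronary gate was GFP+. Embryos of E17.5 also carried Nes-CreER (Tg/0) and R26 (tom/+), and 0.1 ug tamoxifen was given at E15.5. There the endocardial gate is written as GFP+. A pair of coronary gates is given for E17.5, both GFP+ and Emcn-low, one Tomato+ for arterial vessels and capillaries and one Tomato- and GFP-low for venous vessels, and the labels do not name the gate behind the E17 coronary libraries. Stage, added alleles, tamoxifen, gate and batch therefore changed together and cannot be told apart. Nothing in the labels ties replicates to separate litters, and p-values then cover the spread among these libraries alone. In bulk RNA, fewer cells of a type and less RNA per cell cannot be told apart.

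A desmosome is a spot-like junction that ties the intermediate filaments of neighbouring cells together. Desmogleins and desmocollins are cadherins that span the membrane and bind each other between cells; inside the cell, plakoglobin and plakophilins bind the cadherin tails, and desmoplakin links them to the filaments. In heart muscle, DSG2, DSC2, desmoplakin, plakophilin-2 and plakoglobin make up the desmosomes of the intercalated disc, and human mutations in their genes cause arrhythmogenic cardiomyopathy. Endothelial cells are textbook examples of cells joined by adherens and tight junctions, whose main cadherin is VE-cadherin (Cdh5), with vimentin as the main filament.

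Total expected counts per library ran from 14973633 to 27360653. Levels are given as CPM, expected counts divided by TMM-scaled library totals. At E13 the sort genes followed the gates. At E17 Nes RNA was lowest in the endocardial libraries, whose gate is written as GFP+ with no Emcn level. The gates read the green reporter and not Nes RNA, so this level does not settle which gate was used. Emcn averaged 992, 221, 534 and 163 CPM in E17 endocardial, E17 coronary, E13 endocardial and E13 coronary libraries, and Nes averaged 151, 633, 262 and 497 CPM in the same order of groups. The leukocyte gene Ptprc, which encodes CD45, stayed under the filter. Summed over 8 endocardial markers, endocardial libraries reached 5879 to 6132 CPM at E17 and 4827 to 5119 CPM at E13, whereas coronary libraries reached 213 to 219 CPM at E17 and 1226 to 1626 CPM at E13. E13 coronary libraries thus held endocardial marker RNA at 28.5% of the E13 endocardial mean, and E17 coronary libraries at 3.59% of the E17 endocardial mean. These shares are of the sum, and single markers differed from them. At E13 Npr3 averaged 1680 CPM in endocardial and 224 CPM in coronary libraries, whereas Gata4 averaged 231 and 256 CPM. Nfatc1, Gata4 and Gata5 missed the edgeR threshold between the populations at E13.

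The label of these genes as endocardial held for some of them and not for others. Dsg2 and Pkp2 were higher in every endocardial library than in every coronary library of the same stage. Dsc2 and Dsp were higher in endocardial libraries at E17, but at E13 Dsp was higher in coronary libraries and Dsc2 overlapped between the populations. Jup was higher in coronary libraries at both stages. Over the 5 genes, the median log2 difference, endocardial minus coronary, was 3.90 at E17 and -0.16 at E13. Over all genes tested the median was 0.01 at E17 and 0.02 at E13, with 26.1% of genes called higher and 26.5% called lower at E17 and 29.9% higher and 30.1% lower at E13. Those shares stand beside a selected list, and nothing is read from them.

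**Figure D1:**
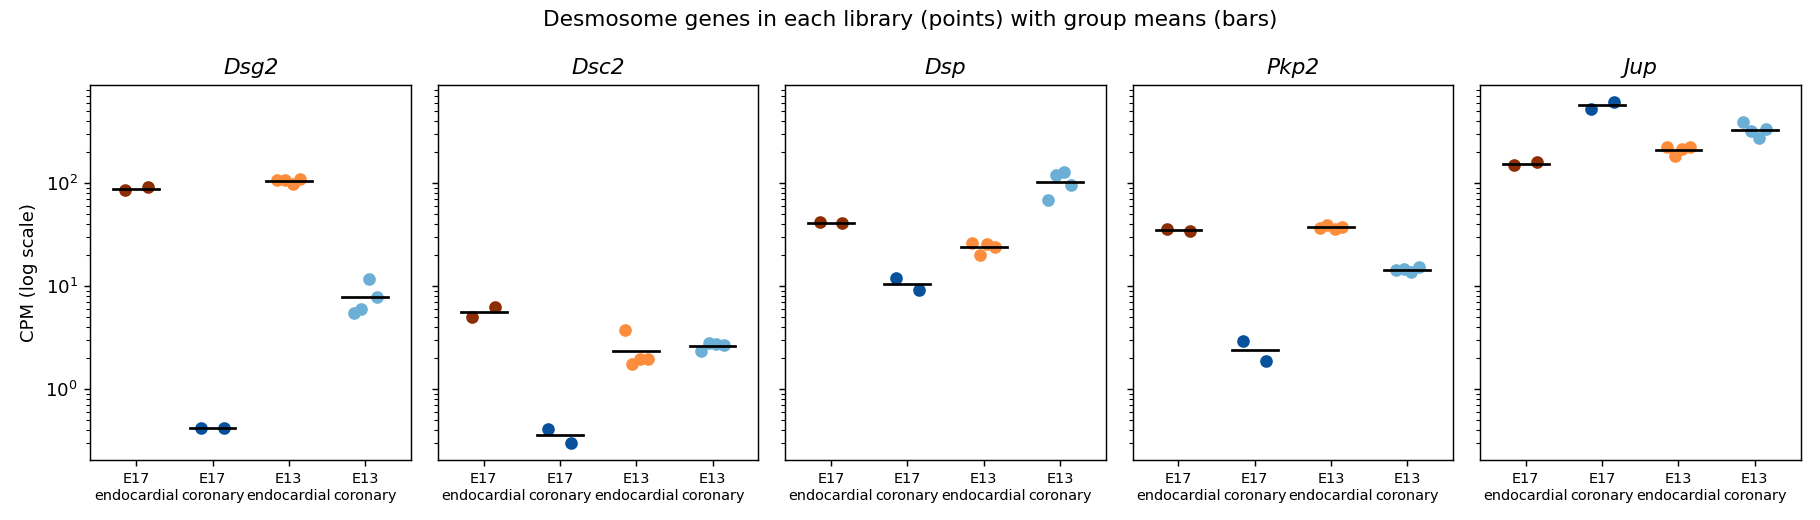
CPM of the 5 desmosome genes in each library (log scale), by group, with E17 endocardial, E17 coronary, E13 endocardial and E13 coronary from left to right; points are libraries and bars are group means. Dsg2, Dsc2, Dsp and Pkp2 sit low in the 2 E17 coronary libraries, where Jup is at its highest, with a mean of 564 CPM.

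Per length, Jup was the most abundant of the 5 in every group. Its level per kb of exon averaged 23.8 CPM in E17 endocardial, 87.7 CPM in E17 coronary, 32.7 CPM in endocardial libraries of E13 and 51.1 CPM in coronary libraries of E13. In endocardial libraries Dsg2 came second, with 10.6 CPM per kb at E17 and 12.6 CPM per kb at E13, followed by Pkp2 with 6.53 and 6.94 CPM per kb at E17 and E13, Dsp with 4.26 and 2.46 CPM per kb, and Dsc2 with 1.06 and 0.442 CPM per kb. In E13 coronary libraries Dsp came second with 10.6 CPM per kb, and Dsc2 was last with 0.497 CPM per kb. VE-cadherin stood far above all of them, at 409 CPM per kb in E17 endocardial and 493 CPM per kb in E13 endocardial libraries.

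Dsg2 encodes desmoglein 2, the broadly expressed desmoglein and the one of heart muscle. The gene lies at chr18:20558074-20604521 on the plus strand of GRCm38. It had 84.9 and 90.1 CPM in E17 endocardial libraries and 0.414 and 0.419 CPM in E17 coronary libraries. At E13 it had 106, 106, 96.8 and 109 CPM in endocardial libraries and 5.47, 5.93, 11.6 and 7.84 CPM in coronary libraries. The lowest endocardial library was thus above the highest coronary library at both stages, and the gap was wider at E17. The log2 difference, endocardial minus coronary, was 7.70 ± 0.38 (SE) at E17 and 3.76 ± 0.17 (SE) at E13. The E17 coronary value rests on 13 counts (95% Poisson interval 6.92 to 22.2), and the ratio of pooled CPM, endocardial over coronary, was 210.1 (95% interval 123 to 395). At E13 that ratio was 13.6 (12.5 to 14.8). These intervals cover counting error only.

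Between the stages Dsg2 fell 18.3-fold in coronary libraries, with a log2 change of -4.19 ± 0.44 (SE) (edgeR quasi-likelihood test, Benjamini-Hochberg adjusted p = 9.33e-06). In endocardial libraries the E17 values of 84.9 and 90.1 CPM were below all 4 E13 values, but the log2 change of -0.26 ± 0.18 (SE) missed the threshold (edgeR adjusted p = 0.308). Fitted with the libraries of these 2 groups alone, the same change passed (edgeR adjusted p = 0.00986), and over all settings tried the adjusted p ran from 0.00986 to 0.601. Within the E13 coronary group, replicate 3 was the highest for Dsg2 and also for the summed endocardial markers (1226, 1348, 1626 and 1529 CPM in replicates 1 to 4). As a share of the endocardial mean of the same stage, coronary Dsg2 was 0.476% at E17 and 7.39% at E13, below the shares of the summed endocardial markers at both stages. Single markers differed from that sum. At E17 Npr3 averaged 2314 CPM in endocardial and 11.5 CPM in coronary libraries, whereas Nfatc1 averaged 182 and 90.4 CPM. The part that endocardial RNA in coronary libraries has in these values was not tested.

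Pkp2 encodes plakophilin-2, an armadillo protein that joins desmoplakin to the cadherins (chr16:16213318-16272712, plus strand). It had 35.8 and 34.2 CPM in E17 endocardial libraries and 2.88 and 1.86 CPM in E17 coronary libraries. At E13 it had 36.6, 39.3, 35.5 and 37.3 CPM in endocardial libraries and 14.1, 14.5, 13.6 and 15.1 CPM in coronary libraries. Endocardial values were nearly level over the stages, and no endocardial library overlapped a coronary one. The log2 difference, endocardial minus coronary, was 3.90 ± 0.14 (SE) at E17 and 1.38 ± 0.08 (SE) at E13. In coronary libraries Pkp2 fell 6.10-fold between the stages, with a log2 change of -2.61 ± 0.13 (SE) (edgeR adjusted p = 4.16e-08). The endocardial change of -0.09 ± 0.09 (SE) missed the threshold (edgeR adjusted p = 0.523), and it stayed above it in all 16 settings, with adjusted p from 0.358 to 0.800. Coronary Pkp2 was 6.77% of the endocardial mean at E17 and 38.5% at E13, above the shares of the summed endocardial markers. Single markers differed from that sum, and the part of endocardial RNA was not tested here either.

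Dsc2 encodes desmocollin-2, the partner cadherin of desmoglein 2 (chr18:20030633-20059554, minus strand). It was the scarcest of the 5 in endocardial libraries, with 4.97 and 6.22 CPM at E17 and 3.68, 1.73, 1.95 and 1.96 CPM at E13. Coronary libraries had 0.411 and 0.300 CPM at E17, which is 11 counts in all, and 2.33, 2.77, 2.72 and 2.67 CPM at E13. At E17 the groups were apart, with a log2 difference, endocardial minus coronary, of 3.96 ± 0.42 (SE) and a pooled ratio of 15.8 (95% interval 8.60 to 32.1). At E13 they overlapped: endocardial replicate 1 was above every coronary library, and the other 3 endocardial libraries were below every coronary library. The E13 difference was -0.16 ± 0.24 (SE), and -0.48 without endocardial replicate 1.

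Dsc2 rose between the stages in endocardial libraries, by 1.25 ± 0.28 (SE) on the log2 scale (edgeR adjusted p = 0.00455), and fell in coronary libraries, with a log2 change of -2.87 ± 0.40 (SE) (edgeR adjusted p = 8.51e-05). All E17 values lay outside the E13 range in each population. Without E17 endocardial replicate 2, the rise of 1.07 missed the threshold (edgeR adjusted p = 0.0564).

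Dsp encodes desmoplakin, the plakin that holds the filaments (chr13:38151294-38198577, plus strand). It had 41.4 and 40.9 CPM in E17 endocardial libraries and 11.9 and 9.16 CPM in E17 coronary libraries. At E13 the order was the other way round, with 25.9, 19.7, 25.6 and 23.8 CPM in endocardial libraries and 68.8, 120, 126 and 94.3 CPM in coronary libraries. No library of one population overlapped the other at either stage. The log2 difference, endocardial minus coronary, was 1.97 ± 0.27 (SE) at E17 and -2.11 ± 0.17 (SE) at E13. Dsp rose between the stages in endocardial libraries, by 0.79 ± 0.20 (SE) on the log2 scale (edgeR adjusted p = 0.0106), and fell 9.76-fold in coronary libraries, with a log2 change of -3.29 ± 0.25 (SE) (edgeR adjusted p = 6.88e-07). Without E17 endocardial replicate 1 the adjusted p of the rise was 0.0682, and without replicate 2 it was 0.0576.

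Fibroblast, mural and endocardial marker sums varied among the E13 coronary libraries in the order of Dsp at its ends, and epicardial and cardiomyocyte sums did not. Summed over 7 fibroblast markers, replicates 1 to 4 held 2095, 4176, 5541 and 3835 CPM, with the lowest in replicate 1 and the highest in replicate 3, as for Dsp. The 8 mural markers summed to 377, 596, 733 and 528 CPM in the same libraries. In E13 endocardial libraries the fibroblast sum was 1204 to 1464 CPM and the mural sum 244 to 267 CPM. All 7 fibroblast markers were lower in endocardial than in coronary libraries at E13, where 30.1% of all genes tested were lower. Between the stages 4 of the 7 fell in coronary libraries, where 25.6% of all genes tested fell, and the other 3 missed the threshold. The sums of 3752 and 1685 CPM in the 2 E17 coronary libraries overlapped the E13 range. Dsp there was below every E13 coronary value, and so were the fibroblast markers Lum, Pdgfra and Mfap4. Col1a1, Col1a2, Col3a1 and Dcn overlapped their E13 coronary ranges. Mural sums of 1113 and 855 CPM in E17 coronary libraries were above every E13 coronary value, but single mural markers differed. Abcc9 averaged 527 CPM in E17 and 146 CPM in E13 coronary libraries, and Tagln averaged 13.2 and 86.5 CPM. Between the stages in coronary libraries Rgs5, Kcnj8 and Abcc9 were called higher and Tagln lower. Pdgfrb, Cspg4, Acta2 and Notch3 missed the threshold there. In endocardial libraries, where Dsp rose, the fibroblast markers Col1a2, Dcn, Lum and Pdgfra rose between the stages and Col3a1 fell. Means at E13 and E17 were 111 and 401 CPM for Col1a2, 2.94 and 131 CPM for Dcn, and 6.40 and 120 CPM for Lum. They were 16.3 and 64.8 CPM for Pdgfra, and 1173 and 495 CPM for Col3a1. With these moves in both directions, the sums of 1310 and 1178 CPM at E17 lay near those of E13. The part of these cells in the Dsp values was not tested. Cardiomyocytes carry all 5 genes, so 15 cardiomyocyte markers were summed: they reached 331 to 401 CPM in E17 endocardial, 286 to 399 CPM in E17 coronary, 284 to 436 CPM in endocardial libraries of E13 and 193 to 396 CPM in coronary libraries of E13. These ranges overlapped in all 4 groups, and E13 coronary replicates 1 to 4 held 372, 193, 396 and 330 CPM, lowest in replicate 2. The epicardial and mesothelial sum of 9 markers was 14.3 to 15.8 CPM in E17 endocardial, 164 to 168 CPM in E17 coronary, 17.4 to 21.4 CPM in endocardial libraries of E13 and 87.8 to 98.5 CPM in coronary libraries of E13, highest in replicate 1. Wt1 was the largest part of the E13 coronary sum, with a mean of 56.2 CPM, and single markers differed from the sum. Tbx18 ran from 6.38 to 32.6 CPM in E13 coronary libraries. Between the stages in coronary libraries Upk3b, Upk1b and Lrrn4 were called lower, as Dsp was. Krt19, Wt1, Aldh1a2 and Tcf21 were called higher there, and Tbx18 and Msln missed the threshold. Of 8 epithelial markers, the defining genes Epcam, Cdh1, Krt5 and Krt14 were each under 1 CPM on average in every group. The 2 that passed the filter, Krt8 and Krt18, were called in the directions of Dsp between the populations at both stages and between the stages in coronary libraries, and missed the threshold between the stages in endocardial libraries. Krt8 had 0.273 and 0.194 CPM in E17 endocardial and 0 counts in E17 coronary libraries, and 0.0480 to 0.300 CPM in endocardial libraries of E13 and 0.703 to 1.81 CPM in coronary libraries of E13.

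**Figure D2:**
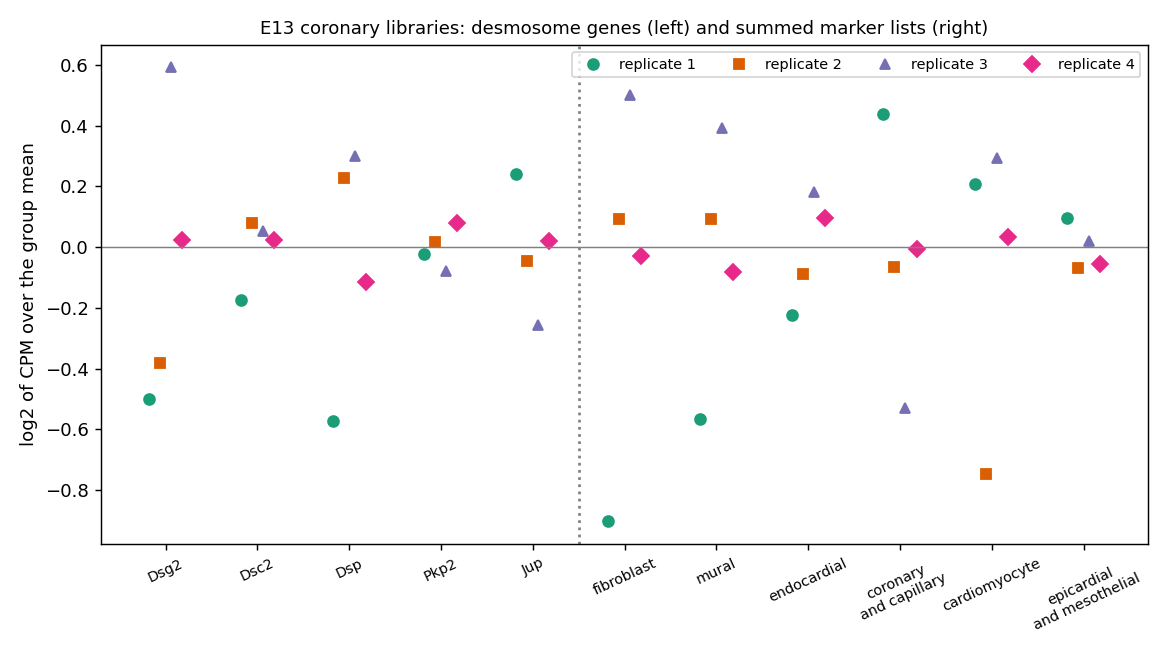
Each point is the CPM of a gene, or the summed CPM of a marker list, in 1 of the 4 E13 coronary libraries, as the log2 of its ratio to the group mean. Replicate 1 is lowest for Dsg2, Dsc2, Dsp, and fibroblast, mural and endocardial markers. It is highest for Jup and for coronary and capillary, and epicardial and mesothelial markers. Replicate 3 is highest for Dsg2, Dsp, and fibroblast, mural, endocardial and cardiomyocyte markers.

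Jup encodes plakoglobin, also called gamma-catenin, which unlike the other 4 also sits in adherens junctions, bound to classical cadherins (chr11:100368958-100397763, minus strand). It had 149 and 158 CPM in E17 endocardial libraries and 519 and 609 CPM in E17 coronary libraries. At E13 it had 224, 181, 213 and 222 CPM in endocardial libraries and 388, 318, 275 and 333 CPM in coronary libraries. Every coronary library was above every endocardial one at both stages. The log2 difference, endocardial minus coronary, was -1.88 ± 0.15 (SE) at E17 and -0.64 ± 0.10 (SE) at E13. Jup rose in coronary libraries by 0.78 ± 0.12 (SE) on the log2 scale (edgeR adjusted p = 0.000171), and fell in endocardial libraries, with a log2 change of -0.45 ± 0.13 (SE) (edgeR adjusted p = 0.0156). The endocardial fall missed the threshold without E17 endocardial replicate 1 (edgeR adjusted p = 0.121) and without replicate 2 (edgeR adjusted p = 0.0638).

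The 5 genes were chosen with results of these libraries known, so nothing is read from their counts beside the shares of all genes. Counted together, 3 of the 5 genes changed between the stages in endocardial libraries by edgeR, Dsc2 and Dsp upward and Jup downward, where 16.2% of all genes tested were called higher and 15.6% lower. Of the 5, Dsc2 alone was called without E17 endocardial replicate 1. Without replicate 2 all 5 missed the threshold, 3 of them with an unadjusted p under 0.05, and with edgeR adjusted p for Dsc2, Dsp and Jup of 0.0564, 0.0576 and 0.0638. In coronary libraries all 5 changed by edgeR, with Dsg2, Dsc2, Dsp and Pkp2 downward and Jup upward, against a background of 24.6% called higher and 25.6% lower. That count was 5 in each of the 16 alternative settings.

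**Figure D3:**
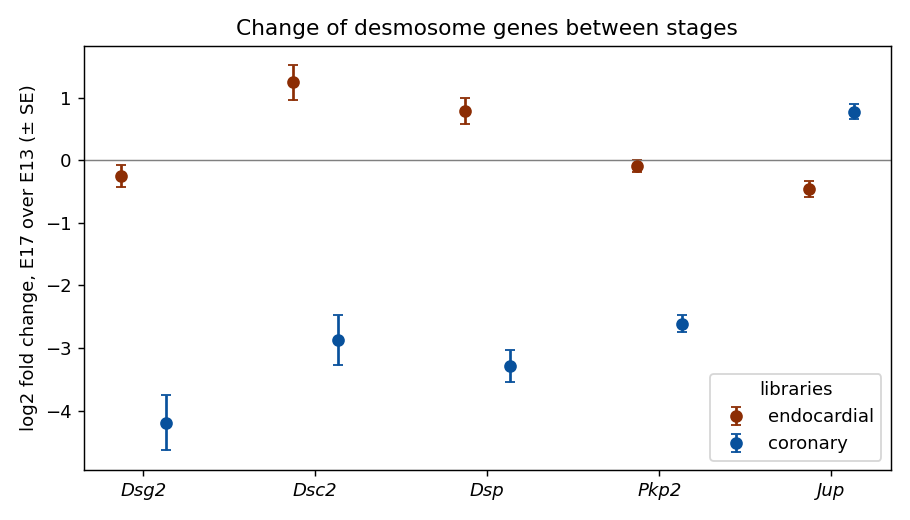
Fitted log2 fold change of each gene, E17 over E13, with its SE, in endocardial (brown) and coronary (blue) libraries. The coronary points of Dsg2, Dsc2, Dsp and Pkp2 lie between -4.19 and -2.61, and the endocardial points of all 5 genes between -0.45 and 1.25.

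Promoters of Jup and Dsp are shown to let their starts be compared. Between the stages each of them moved in opposite directions in the populations. Dsc2 did so too, and its promoter is not shown. Sequence is from RefSeq of GRCm38.p6 for Jup (chr11:100397791-100398040, minus strand) and Dsp (chr13:38151044-38151293, plus strand). Each window is the 250 bases before the start, written 5′ to 3′ along the gene. Capitals mark GGGCGG or its reverse complement CCGCCC, the GC box that Sp-family factors bind.

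Dsp: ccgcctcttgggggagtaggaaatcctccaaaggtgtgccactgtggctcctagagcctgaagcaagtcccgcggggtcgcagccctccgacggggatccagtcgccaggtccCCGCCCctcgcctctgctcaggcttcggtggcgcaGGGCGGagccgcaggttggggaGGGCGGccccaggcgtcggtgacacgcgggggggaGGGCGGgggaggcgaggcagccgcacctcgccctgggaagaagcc

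Jup: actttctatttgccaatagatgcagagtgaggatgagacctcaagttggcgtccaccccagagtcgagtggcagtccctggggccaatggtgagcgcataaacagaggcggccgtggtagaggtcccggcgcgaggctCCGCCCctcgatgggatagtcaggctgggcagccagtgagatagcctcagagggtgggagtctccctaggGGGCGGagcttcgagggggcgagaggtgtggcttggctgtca

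The Dsp window is 72.4% G or C and the Jup window 62.0%, against a median of 52.4% over 32851 promoters. Matches to GGGCGG on either strand number 4 in Dsp and 2 in Jup, and 32.7% of all promoters hold at least 1. This motif was added after the sequences were seen. CACCTG, the E-box of Snail and Zeb factors, is in neither window and in 17.2% of promoters. AGATAA and TGATAA of GATA factors, TGACTCA of AP-1 and GGAAGT of Ets factors are also in neither, and occur in 9.99%, 7.94%, 4.46% and 19.7% of promoters. A match or its absence here describes these letters in this window.

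Most of the remaining desmosome genes were nearly silent, and Pkp4 was the exception. Of 12 further genes of the family, 4 passed the filter: Dsc3, Pkp1, Pkp4 and Perp. Dsg1a, Dsg1b, Dsg1c, Dsg3, Dsg4, Dsc1, Pkp3 and Cdsn, which are known from epithelium, did not pass and were not tested. Dsc1 and Dsg1a had no count in any library, which at E13 allows up to 0.0356 CPM in endocardial and 0.0374 CPM in coronary libraries. Pkp4, also called p0071, a plakophilin relative found in adherens junctions too, reached 26.1 CPM per kb of exon in E17 endocardial libraries, above Dsg2. It had 147 and 151 CPM in E17 endocardial and 139 and 176 CPM in E17 coronary libraries. At E13 it had 94.1, 86.5, 93.2 and 100 CPM in endocardial and 75.7, 93.4, 104 and 85.1 CPM in coronary libraries. It rose between the stages in endocardial libraries by 0.67 ± 0.11 (SE) on the log2 scale (edgeR adjusted p = 0.000764) and in coronary libraries by 0.82 ± 0.11 (SE) (edgeR adjusted p = 7.53e-05). Between the populations it missed the threshold, with log2 differences, endocardial minus coronary, of -0.08 ± 0.13 (SE) at E17 and 0.06 ± 0.09 (SE) at E13.

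Low levels of epithelial desmosome genes were seen in E13 coronary libraries. Pkp1, the plakophilin of stratified epithelium, had 1.57, 1.86, 1.36 and 1.87 CPM there and at most 0.137 CPM in any other library. It was lower in endocardial than in coronary libraries at E13 (log2 difference -5.81 ± 0.59 SE, edgeR adjusted p = 4.01e-06) and fell in coronary libraries between the stages, with a log2 change of -3.64 ± 0.65 (SE) (edgeR adjusted p = 0.000566). Dsc3 had 0.216, 0.780, 0.807 and 0.213 CPM in E13 coronary libraries and 0 counts in every other library. With the empty group set to 3 counts over the group, Dsc3 was at least 14.2-fold lower in endocardial than in coronary libraries at E13 (edgeR adjusted p = 0.00343), and at least 5.26-fold lower at E17 than at E13 in coronary libraries (edgeR adjusted p = 0.0237). Of the 4 genes, Pkp4 was the 1 that edgeR called between the stages in endocardial libraries, where 16.2% of all genes were called higher and 15.6% lower. At E17 Dsc3 had no counts in either population, and Pkp1, Pkp4 and Perp missed the threshold between the populations (edgeR adjusted p = 0.710, 0.632 and 0.678).

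Filament genes and other plakins were tested as a second list. Of its 14 tested genes, 4 rose and 2 fell between the stages in endocardial libraries, where 16.2% of all genes were called higher and 15.6% lower, and 6 rose and 5 fell in coronary libraries, where the shares were 24.6% and 25.6%. Between the populations, 3 were higher in endocardial libraries at E17 and 7 lower (26.1% and 26.5% of all genes), and 2 were higher and 9 lower at E13 (29.9% and 30.1%). Median log2 values of this list were 0.11 and -0.18 for the stages in endocardial and coronary libraries, and -0.22 and -0.84 for the populations at E17 and E13, where the medians of all genes were between -0.02 and 0.02.

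Ppl had the largest fitted log2 change of the 14 genes between the stages in endocardial libraries, whereas in coronary libraries Krt7, Krt8 and Krt18 fell by more. It encodes periplakin, a relative of desmoplakin known from the cornified envelope and desmosomes of epithelium. It had 31.7 and 34.0 CPM in E17 endocardial libraries and 0.206 and 0.419 CPM in E17 coronary libraries. At E13 it had 4.89, 4.03, 4.40 and 4.76 CPM in endocardial and 0.866, 0.823, 1.71 and 1.76 CPM in coronary libraries. Every endocardial library was above every coronary library. Ppl rose in endocardial libraries by 2.86 ± 0.22 (SE) on the log2 scale (edgeR adjusted p = 3.47e-06) and fell in coronary libraries, with a log2 change of -1.99 ± 0.43 (SE) (edgeR adjusted p = 0.00228). The log2 difference, endocardial minus coronary, was 6.66 ± 0.40 (SE) at E17 (edgeR adjusted p = 5.43e-08) and 1.81 ± 0.23 (SE) at E13 (edgeR adjusted p = 2.32e-05).

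Lmna, which encodes the nuclear filament proteins lamin A and C, had 161 and 163 CPM in E17 endocardial and 139 and 135 CPM in E17 coronary libraries, and 50.3, 40.6, 39.7 and 40.3 CPM in endocardial libraries of E13 and 178, 201, 179 and 193 CPM in coronary libraries of E13. The E13 endocardial libraries were thus the low ones. It rose in endocardial libraries by 1.92 ± 0.09 (SE) on the log2 scale (edgeR adjusted p = 1.12e-07). Dst, the giant cytoskeletal linker dystonin, rose in both populations, by 0.66 ± 0.07 (SE) in endocardial (edgeR adjusted p = 3.27e-05) and 0.93 ± 0.07 (SE) in coronary libraries (edgeR adjusted p = 6.54e-07). Vim, which encodes vimentin, averaged 3831 and 5686 CPM in endocardial and coronary libraries of E17, and 3601 and 4483 CPM in endocardial and coronary libraries of E13. The keratin partners of epithelial desmosomes stayed low: Krt18 had 1.58 and 1.04 CPM in E17 endocardial, 0.137 and 0.240 CPM in E17 coronary, 1.01 to 1.40 CPM in endocardial libraries of E13 and 2.40 to 3.33 CPM in coronary libraries of E13. Like Dsp, Krt18 was higher in endocardial libraries at E17 (log2 difference 2.74 ± 0.43 SE, edgeR adjusted p = 0.000166) and lower at E13 (-1.15 ± 0.22 SE, edgeR adjusted p = 0.000702). Other keratins differed from this. Krt19 was called lower in endocardial than in coronary libraries at both stages, with means of 0.803 and 4.71 CPM at E17. It was called higher at E17 than at E13 in coronary libraries. Krt7 missed the threshold between the populations at both stages. Desmin, the muscle filament that desmosomes hold in cardiomyocytes, was at 10.4 CPM or less in every library.

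**Figure D4:**
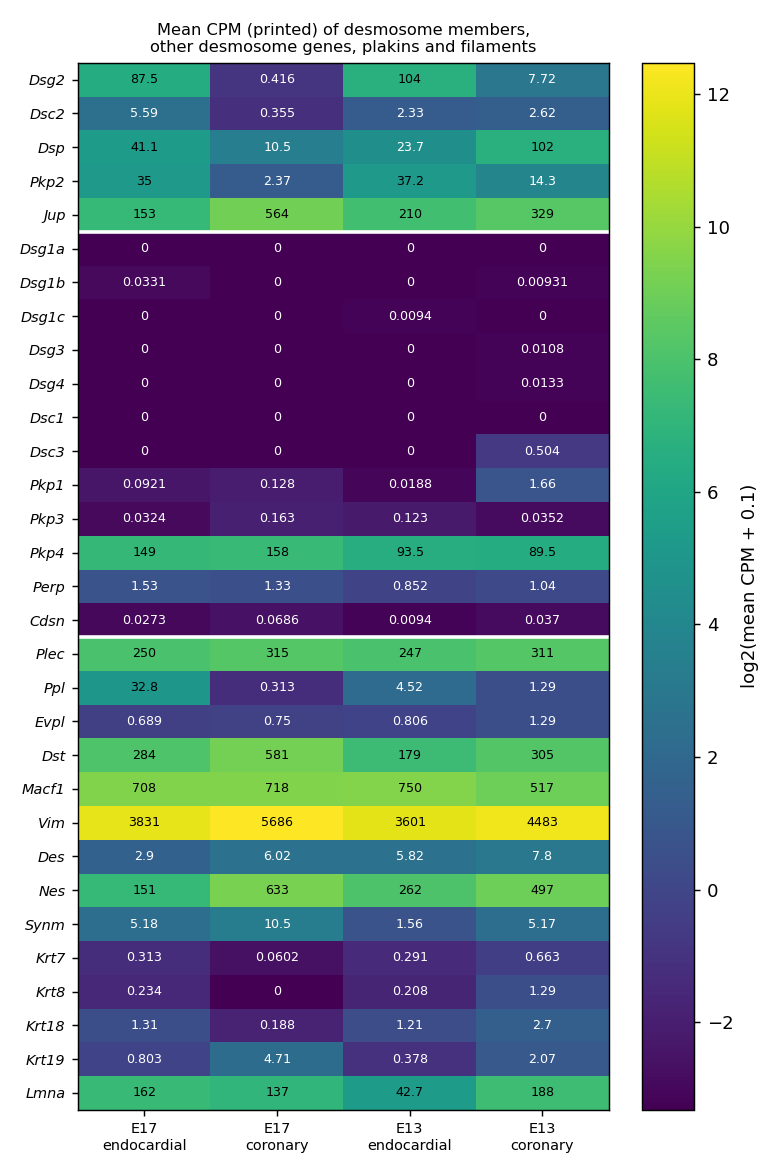
Mean CPM of the 5 desmosome genes (top block), 12 further desmosome genes (middle) and 14 plakin and filament genes (bottom) in the 4 groups, printed in each cell and coloured as log2(mean CPM + 0.1). Most of the middle block is near 0, and Ppl reads 32.8 CPM in E17 endocardial libraries and 0.313 CPM in E17 coronary libraries.

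Of 13 adherens junction genes, 3 rose and 4 fell between the stages in endocardial libraries (16.2% and 15.6% of all genes tested), and 9 rose and 3 fell in coronary libraries (24.6% and 25.6% of all genes tested). All genes were thus also called more often in coronary libraries. At E17, 9 of the 13 were lower in endocardial than in coronary libraries and 1, Nectin2, was higher (26.5% and 26.1% of all genes tested). At E13, 5 were higher and 8 lower (29.9% and 30.1% of all genes tested). Cdh5 had 1685 and 1751 CPM in E17 endocardial and 3448 and 3679 CPM in E17 coronary libraries, and rose in coronary libraries by 1.02 ± 0.11 (SE) on the log2 scale (edgeR adjusted p = 9.62e-06). In endocardial libraries its change of -0.27 ± 0.11 (SE) missed the threshold (edgeR adjusted p = 0.0904). Tjp1, the tight junction scaffold ZO-1, rose in coronary libraries by 0.72 ± 0.10 (SE) (edgeR adjusted p = 5.77e-05) and fell in endocardial libraries, with a log2 change of -0.48 ± 0.10 (SE) (edgeR adjusted p = 0.00349), in the directions of Jup. Gja1, which encodes connexin 43, had 93.1 and 109 CPM in E17 endocardial and 302 and 303 CPM in E17 coronary libraries, and was lower in endocardial libraries at both stages (log2 difference -1.58 ± 0.14 SE at E17, edgeR adjusted p = 1.61e-06, and -1.57 ± 0.10 SE at E13, edgeR adjusted p = 8.15e-08). Cdh2, which encodes N-cadherin, had 37.1, 66.0, 97.6 and 66.1 CPM in E13 coronary replicates 1 to 4, lowest in replicate 1 and highest in replicate 3, as for the fibroblast markers, and at most 24.1 CPM elsewhere.

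Of 13 genes that regulate or modify desmosomes, 11 were tested, and Grhl1 and Grhl2 did not pass the filter. In endocardial libraries 1 rose between the stages, Tmem43 (0.38 ± 0.07 SE, edgeR adjusted p = 0.00148), a nuclear envelope protein mutated in human arrhythmogenic cardiomyopathy, and 1 fell, the sheddase Adam10 (-0.23 ± 0.05 SE, edgeR adjusted p = 0.00414). In coronary libraries 3 rose and 2 fell. Of all genes tested, 16.2% rose and 15.6% fell in endocardial libraries, and 24.6% rose and 25.6% fell in coronary libraries. Prkca, the kinase that phosphorylates desmoplakin, had 39.2 and 31.1 CPM in E17 endocardial and 14.4 and 12.5 CPM in E17 coronary libraries, and fell in coronary libraries, with a log2 change of -1.05 ± 0.12 (SE) (edgeR adjusted p = 2.24e-05). Kazn, which encodes the desmosome-associated protein kazrin, was lower in endocardial libraries at both stages (log2 difference -2.27 ± 0.20 SE at E17, edgeR adjusted p = 1.32e-06, and -1.33 ± 0.13 SE at E13, edgeR adjusted p = 3.84e-06). Among repressors of epithelial junction genes, Snai2 was lower in endocardial libraries at E17 (-2.62 ± 0.29 SE, edgeR adjusted p = 1.13e-05) and E13 (-1.51 ± 0.20 SE, edgeR adjusted p = 3e-05), and Zeb2 was higher at E17 (1.02 ± 0.14 SE, edgeR adjusted p = 4.92e-05) and E13 (0.77 ± 0.09 SE, edgeR adjusted p = 2.01e-05). Twist1 had 20.7, 48.1, 61.8 and 44.2 CPM in E13 coronary replicates 1 to 4 and at most 8.79 CPM elsewhere, again lowest in replicate 1 and highest in replicate 3.

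Over the 4 lists together, 42 of 53 genes were tested. Between the stages 9 rose and 7 fell in endocardial libraries, beside 16.2% and 15.6% of all genes, and 19 rose and 12 fell in coronary libraries, beside 24.6% and 25.6%. Between the populations 7 were higher and 19 lower in endocardial libraries at E17, beside 26.1% and 26.5% of all genes, and 12 higher and 23 lower at E13, beside 29.9% and 30.1%. Medians of the log2 values were 0.09 and 0.17 for the stages in endocardial and coronary libraries and -0.18 and -0.43 for the populations at E17 and E13. With genes of an empty group at their bound, the E17 median was -0.19. Of 7 lymphatic markers, Lyve1, Prox1, Reln and Ccl21a rose between the stages in endocardial libraries, Flt4 and Mmrn1 fell, and Pdpn missed the threshold. Lyve1 rose in endocardial libraries by 3.19 ± 0.19 (SE) on the log2 scale (edgeR adjusted p = 5.22e-07) and Prox1 by 0.91 ± 0.12 (SE) (edgeR adjusted p = 0.000174). The sum of all 7 was 343 to 421 CPM in E17 and 279 to 297 CPM in E13 endocardial libraries. In coronary libraries it was 379 to 391 CPM at E17, where Flt4 alone averaged 354 CPM, and 340 to 453 CPM at E13. At E17 Prox1 and Lyve1 were called higher in endocardial than in coronary libraries, Flt4 and Reln lower. The part of lymphatic cells in the values of Dsc2, Dsp and Ppl was not tested.

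**Figure D5:**
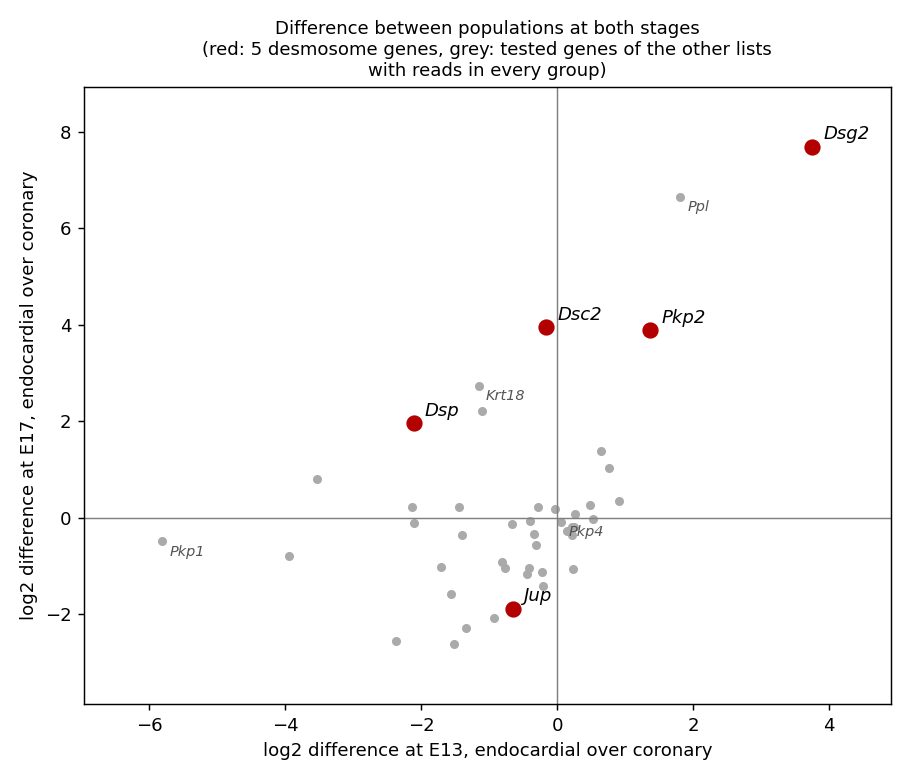
Log2 difference, endocardial over coronary, at E13 (horizontal axis) and at E17 (vertical axis) for the 5 desmosome genes (red) and for tested genes of the 4 other lists with reads in every group (grey). Dsg2 lies at 3.76 and 7.70, Dsp at -2.11 and 1.97, Jup at -0.64 and -1.88, and Ppl at 1.81 and 6.66.

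Genes within 200 kb were read as neighbours. Dsg2 and Dsc2 lie in the desmosomal cadherin cluster on chromosome 18, whose other members near them, Dsg1b, Dsg1c, Dsg3, Dsg4, Dsc1 and Dsc3, were at or near 0 in endocardial libraries. On the far side of Dsg2, B4galt6, which encodes a glycosyltransferase of glycolipid synthesis, averaged 120 ± 7.78 CPM in E17 endocardial and 26.0 ± 2.46 CPM in E17 coronary libraries (SD, n = 2 each), and 112 ± 7.51 CPM in endocardial libraries of E13 and 57.5 ± 4.88 CPM in coronary libraries of E13 (SD, n = 4 each). It was higher in endocardial libraries at E17 (log2 difference 2.21, edgeR adjusted p = 1.24e-08) and E13 (0.96, edgeR adjusted p = 3.19e-07), as Dsg2 was. An antisense gene, Gm16090, overlaps the exons of Dsg2 by 330 bases and averaged at most 0.198 CPM in any group; the libraries do not mark strand, so reads there cannot be told apart. Bmp6, a BMP ligand 146529 bp beyond Dsp, averaged 162 ± 16.5 CPM in E17 endocardial and 27.3 ± 5.85 CPM in E17 coronary libraries (SD, n = 2 each), and 25.7 ± 4.40 CPM in endocardial libraries of E13 and 41.8 ± 5.97 CPM in coronary libraries of E13 (SD, n = 4 each). Like Dsp it rose in endocardial libraries (log2 change 2.65, edgeR adjusted p = 5.22e-07) and fell in coronary libraries (-0.61, edgeR adjusted p = 0.0116). Snrnp48, a splicing factor gene only 6360 bp from Dsp, rose by 0.26 and 0.27 in endocardial and coronary libraries (edgeR adjusted p = 0.0206 and 0.0109).

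Genes most like each member over the 12 libraries were ranked by Pearson's r of log2 CPM among 9481 genes of at least 10 CPM on average, as a description of libraries that share 4 groups. Dsg2 was followed most closely by Ackr3 (r = 0.998), Bmx (0.997) and Igfbp5 (0.997). Igfbp5 averaged 5382 CPM in E17 endocardial, 389.9 CPM in E17 coronary, 6824 CPM in endocardial libraries of E13 and 1363 CPM in coronary libraries of E13. Pkp2 was nearest to Plxnc1 (0.996), Lrig1 (0.996) and Hand2os1 (0.995). Dsc2 was nearest to Cxcl16 (0.969), Npc2 (0.963) and Dap (0.961), and Rras2 (0.977) and Tanc2 (0.975) were among the 3 nearest to Dsp. Jup was nearest to Lxn (0.990), Myo10 (0.986) and Rps6ka3 (0.985). None of the genes named here is shared between members.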

How the data were processed

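RNA was measured in 12 libraries of sorted endothelial cells, polyadenylated and not strand-marked, per the labels' protocols. The authors deposited expected counts by gene, made with RSEM 1.2.3 after CASAVA 1.8.2 and cutadapt 1.3 on GRCm38, per the submitters' processing notes; 18.3% are not whole. RSEM divides shared reads by an estimate, so near-identical genes are uncertain. Expected counts were rounded, and filterByExpr (minimum count 10, total 15) kept 15171 genes. Genes were tested in R 4.3.3 with the quasi-likelihood fit of edgeR 4.0.16, TMM scaling and 1 fit of 4 group means (8 residual degrees of freedom), Benjamini-Hochberg adjustment over all genes tested and a threshold of 0.05. Each SE of a log2 value is that value's size divided by the square root of the F statistic of the edgeR test. It is thus derived from the test and is not a separate estimate. For population differences of the desmosome genes, the SE describes spread and is not free of the choice of genes. Alternatives were DESeq2 1.42.0, RLE factors, no filter, the 2 compared groups alone, a batch block and each library left out. Coordinates come from a GENCODE annotation of GRCm38 and promoters from RefSeq. The edgeR fit was tested on simulated data. Totals of 14973633 to 27360653 per library set the counting precision.

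The members and lists were chosen with earlier results of these data known. Named are all members, list genes with the 3 smallest adjusted p per comparison or the most abundant that missed it, genes within 200 kb, the 3 most correlated genes, gate genes and markers; other list genes named complete a statement and were picked after their values were seen. Some genes within that rule are left out for length, and 1 of those most correlated is not reported here. Replicates were more different than counting noise gives (chi-square per gene 4.21 to 36.5). The batch label pairs 1 endocardial with 1 coronary library: deviations from group means correlated at 0.344 to 0.575 within the 4 E13 batches and at -0.388 to 0.347 between them. Stage is confounded with batch.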

Additional observations from a re-analysis of the deposited data

Results flagged for a closer look

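Dsc2 had 3.68 CPM in E13 endocardial replicate 1, set apart from the other 3 libraries of its group at 1.73, 1.95 and 1.96 CPM, with a gap of 0.881 of the group's range, above Dixon's 95% critical value for 4 samples. Chance flags about 1 in 20 groups. For 3 genes every E17 library lay outside the E13 range of its population, on opposite sides in the populations. The log2 difference, endocardial minus coronary, changed between the stages by 4.12 for Dsc2, by 4.08 for Dsp and by -1.23 for Jup. These differences were not tested, since both population differences entered the choice of the genes.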

How the results depend on the processing

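Of 603 alternative values, 583 kept their direction and side of the threshold, or moved by less than the spread or 1.5 times, and 0 reversed. Leaving out 1 library at a time, the number of the 5 genes that edgeR called between the stages in endocardial libraries ran from 0 to 3, and that over all genes from 2928 to 5211 (4830 with all libraries), with the lowest values without an E17 endocardial library; those groups hold 2 libraries. The median log2 difference of the 5 genes, endocardial minus coronary, ran from 3.60 to 4.17 at E17 and from -0.48 to -0.0353 at E13. Without E17 endocardial replicate 2, where edgeR called 0 of the 5, 3 had an unadjusted p under 0.05. With the batch as a replicate block, the calls over the 4 lists were 26 at E17 and 35 at E13, as without it, and no call changed; the median differences were 3.90 and -0.22. Comparisons between stages could not be fitted with that block, since no batch holds both stages. E17 coronary values of Dsg2 and Dsc2 rest on 13 and 11 counts, so their ratios are known only to their intervals.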
